A study of Mus musculus with 222 samples.

Results

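E12.5 XX germ cells were compared between embryos with a germline deletion of Eed (ECKO) and Control embryos. The cells were taken from the single-cell count table of XX embryos, in which the column name gives the genotype and the embryo. A cell was kept when it held at least 50000 counts and at least 1500 genes with a count, which left 56 of the 96 XX cells. Of these, 26 were ECKO cells, 13 each from embryos E277.3 and E298.4, and 30 were Control cells, 14 from E277.5 and 16 from E301.1. The series holds 222 samples, 192 of them single E12.5 cells of both sexes, and 71 XY cells passed the same filter. The kept cell with the fewest counts had 70194 and the left-out cell with the most had 26060, so no cell lay between these totals. The kept cell with the fewest genes had 2667.

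Both groups were labelled with the mixed strain C57BL/6;129S1/SvlmJ. Per the labels, females homozygous for a floxed Eed allele and carrying OG, an Oct4-GFP reporter driven by regulatory sequence of Pou5f1, were mated with BC males heterozygous for floxed Eed. BC is Blimp1-Cre, a Cre transgene driven by Prdm1 regulatory sequence, which is active in primordial germ cell (PGC) precursors and also in some other cells. ECKO cells were labelled Eed -/- and Control cells wild type. In both groups GFP-positive cells were sorted singly from trypsin-digested gonads, so every cell was selected on the activity of a Pou5f1 reporter. The libraries were made with Smart-seq2, a method that amplifies polyadenylated RNA of 1 cell along its full length. The embryo codes could not be tied to the embryo numbers in the labels, and nothing says whether E277.3 and E277.5, an ECKO and a Control embryo whose codes start alike, were littermates. The title and the genotype label of 1 cell of E277.3 disagree, and its title, ECKO, was followed.

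EED is the subunit of Polycomb repressive complex 2 (PRC2) that binds methylated histone H3 lysine 27 and is needed for the complex to add this repressive mark. PRC2 often occupies CpG-rich promoters of developmental regulators. In the fetal ovary, XX germ cells leave the PGC program, lower pluripotency genes and, under retinoic acid and BMP signals, switch on Stra8 and enter meiosis from about the stage studied here.

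The summed counts were 24618052 and 15613933 in the ECKO embryos E277.3 and E298.4, and 28753681 and 27659802 in the Control embryos E277.5 and E301.1. Cells held a median of 8011 and 6696 genes in the ECKO embryos, against 6002.5 and 6824.5 in the Control embryos. After each cell was thinned to 50000 counts the medians were 5848 and 4010 genes in ECKO cells, against 4586.5 and 4981.5 in Control cells, so the ECKO embryos lay on either side of both Control embryos. All 4 germ cell markers, Ddx4, Dazl, Dppa3 and Utf1, reached 10 CPM (the count scaled to a fixed library total) in 11 of 13 and 9 of 13 ECKO cells and in 14 of 14 and 13 of 16 Control cells. The germ cell label therefore held for most cells. 2 ECKO cells had only 1 of the 4 markers. The first, from E277.3, had 318 CPM of Stra8, 0 CPM of Pou5f1 and the 2667 genes named above. The second, from E298.4, had 1388 CPM of Pdgfra, 406 CPM of Wt1 and 440 CPM of Xist, which mark somatic gonadal cells or XX cells with an inactive X chromosome, and 0 CPM of Pou5f1. List counts, list medians and levels that move by over 1.5 times without these 2 cells are given both ways. No Y-linked gene reached 10 CPM in any of the 56 cells.

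The genes on which the results turn most are Stra8, which had the largest difference in cell share, Plin3, which rose, and Jak3, which fell. Their sequences from 250 bases before the annotated start up to that start are printed in the direction of transcription, from RefSeq on GRCm38.p6, because CpG content is the promoter feature most tied to PRC2. The windows are chr6:34920698-34920947 on the plus strand for Stra8, chr17:56290512-56290761 on the minus strand for Plin3 and chr8:71676133-71676382 on the plus strand for Jak3. CpG dinucleotides are in capitals.
Stra8: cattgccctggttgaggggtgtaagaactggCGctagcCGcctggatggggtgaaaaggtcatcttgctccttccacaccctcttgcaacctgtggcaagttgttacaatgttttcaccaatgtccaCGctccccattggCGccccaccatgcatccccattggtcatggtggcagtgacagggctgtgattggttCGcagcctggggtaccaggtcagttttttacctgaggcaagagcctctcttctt
Plin3: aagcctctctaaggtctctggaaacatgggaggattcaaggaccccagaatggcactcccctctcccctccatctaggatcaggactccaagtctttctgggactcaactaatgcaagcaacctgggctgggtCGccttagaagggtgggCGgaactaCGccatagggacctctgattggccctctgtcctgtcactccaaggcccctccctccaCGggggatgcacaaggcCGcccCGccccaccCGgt
Jak3: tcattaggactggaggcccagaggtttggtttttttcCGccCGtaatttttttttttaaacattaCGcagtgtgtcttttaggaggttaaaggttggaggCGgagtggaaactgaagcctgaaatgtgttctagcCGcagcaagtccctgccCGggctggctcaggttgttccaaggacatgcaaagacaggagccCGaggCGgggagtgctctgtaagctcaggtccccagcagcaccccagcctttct
The stretches hold 5, 7 and 8 CpG. In windows that also include 50 bases after the start, the 14 matched genes among the 16 with a much larger share in ECKO had a median of 15 CpG (range 5 to 36). The 5 genes with a much smaller share had a median of 7 (2 to 23), and the 10584 matched genes present in at least 1 cell had 21. The E-box CACGTG, searched on both strands, was in 2 of the 14 windows (Gaa and Ripk3) and in 10.3% of windows of genes present. TTCCCGC, an E2F-type motif, was in 0 of the 14 and in 8.75% of genes present, and AGGTCA, a half-site of nuclear receptors, was in 3 of the 14 (Gaa, Wfdc15a and Stra8) and in 12.1% of genes present. Of the 5 genes with a smaller share, 1 (Ap3b2) held AGGTCA and none held the other 2 motifs. Over all 27025 RefSeq windows the shares were 7.24%, 4.66% and 16.04%.

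Eed itself was detected at 10 CPM or more in 6 of 13 and 6 of 13 ECKO cells, against 12 of 14 and 15 of 16 Control cells. Its level was 14 and 22 CPM in the ECKO embryos and 59.2 and 62.1 CPM in the Control embryos, with no overlap. The log2 fold change, ECKO over Control, was -1.75 (SE 0.68), and the edgeR quasi-likelihood test gave an adjusted p of 0.353. The deletion removes part of the gene, so a count over the whole gene need not reach 0 in a recombined cell. The source of the Eed counts in ECKO cells was not tested. Among single cells the highest Eed level was 73.2 CPM in ECKO, in the cell rich in Pdgfra, and 203 CPM in Control. Of the 12 PRC2 genes on the list, 6 had lower shares in both ECKO embryos than in either Control embryo and none had higher ones. Over all genes present in at least 1 cell, 11.55% had lower and 20.1% higher shares on that basis. Without the 2 marker-poor cells, 3 remained lower, against 7.23% of all genes. These were Eed, the deleted gene itself, Suz12, a core subunit, and Aebp2, an accessory one. With all kept cells the log2 fold changes of Suz12 and Aebp2 were -0.64 (SE 0.77) and -0.44 (SE 1.09), each smaller than its SE. Ezh2, the main PRC2 methyltransferase in dividing cells, was at 48.8 and 92.7 CPM in ECKO and 37.4 and 34.3 CPM in Control (log2 fold change 0.98, SE 0.60, edgeR adjusted p 0.52). In E11.5 bulk libraries of sorted XX PGCs, 4 ECKO and 3 Control, Eed was at 27.97, 21.4, 12.53 and 27 CPM in ECKO and 81.9, 89.3 and 76.4 CPM in Control, a log2 fold change of -1.88 (SE 0.35, edgeR adjusted p 0.0567). In bulk samples, fewer cells with a transcript and less RNA per cell cannot be told apart.

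The summed counts of the 8 E12.5 embryos, 2 of each sex and genotype, were fitted together in edgeR, and the contrast ECKO minus Control was taken in XX. Of 13956 genes tested, 2 rose (0.0143%) and 1 fell (0.00717%) at a Benjamini-Hochberg adjusted p under 0.05, while 1710 had an unadjusted p under 0.05. If no gene differed, about 698 would be expected at that unadjusted level. Over all genes the median log2 fold change was 0.13. 1392 tested genes had counts in ECKO cells or in XY embryos but none in any XX Control cell, and 482 had none in any XX ECKO cell. The number of calls depended on the test and on single embryos. DESeq2 called 910 genes, and leaving out 1 embryo gave 80 without E277.3, 46 without E298.4, 56 without E277.5 and 192 without E301.1. It gave 107, 114, 241 and 202 without XY embryos E281.3, E296.1, E279.1 and E280.1. Fitted on the 4 XX embryos alone, or with cells thinned to 50000 counts, no gene was called by edgeR (0 of 12594 and 0 of 8558 tested), with 1558 and 1157 at an unadjusted p under 0.05. If no gene differed, about 630 and 428 would be expected. The 3 genes named next were among the calls in every setting that made any.

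Plin3 (chromosome 17) encodes a coat protein of lipid droplets. It was at 179 and 49.2 CPM in the ECKO embryos, against 0.0683 and 0 CPM in the Control embryos. That is 5604 counts in ECKO and 2 in Control, a ratio of 3653 with a 95% counting interval of 1011 to 30172, which covers counting error only. Of 13 cells each, 10 and 7 ECKO cells had it, and no Control cell did, where 0 of 14 and 0 of 16 allow shares of up to 21.4% and 18.8%. The fitted log2 fold change was 11.46 (SE 1.34, edgeR adjusted p 0.0353), a size that depends on the small offset added to the near-empty Control sums. In E11.5 ECKO libraries Plin3 was at 4.84, 0.765, 2.15 and 11.2 CPM, and it was at 0 in all 3 Control libraries. It was too low there to be tested.

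Bin2 (chromosome 15), a membrane-bending BAR domain protein best known from blood cells, was at 114 and 67.7 CPM in ECKO, against 0.0683 and 0.184 CPM in Control. All 13 cells of E277.3 but 5 of 13 cells of E298.4 had it, and no Control cell did. The log2 fold change was 9.44 (SE 1.16, edgeR adjusted p 0.0353). The pan-blood marker Ptprc and the globins Hba-a1, Hbb-y and Hbb-bh1 were at 0 in all 56 cells. At E11.5 the Bin2 levels of the groups overlapped, 11.47 to 138 CPM in ECKO and 7.77 to 24.8 CPM in Control.

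Jak3 (chromosome 8), a cytoplasmic tyrosine kinase that signals from cytokine receptors, was at 13.47 and 12.2 CPM in ECKO, against 196 and 234 CPM in Control. Of 13 cells each, 4 and 3 ECKO cells had it, against 9 of 14 and 14 of 16 Control cells. Neither measure overlapped between groups. The log2 fold change was -4.06 (SE 0.48, edgeR adjusted p 0.0353). The adjusted p was 0.228 in the XX embryos alone, as for Plin3, and 0.175 for Bin2, and all 3 were at 0.0756 with thinned cells. At E11.5 Jak3 was at 21.04, 45.9, 23.6 and 19.3 CPM in ECKO and 49.7, 78.4 and 58.8 CPM in Control, again without overlap (log2 fold change -1.22, edgeR adjusted p 0.19).

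A second measure was the share of an embryo's cells with a gene at 10 CPM or more. With 2 embryos a group no exact two-sided permutation test can go below p = 0.333, so these shares carry no test. A gap was defined as the distance in percentage points between the nearest ECKO and Control embryos. In the E298.4 cells with 70194 and 95027 counts, 1 count was enough to reach 10 CPM, so presence there can rest on 1 count. Of 14052 genes present in at least 1 cell, 16 (0.114%) had a share higher in ECKO by 50 points or more, and 5 (0.0356%) had a share lower by as much. Shares did not overlap at all for 2826 genes higher in ECKO (20.1%) and for 1623 lower (11.55%). Just inside the limit were Nek6 at 50.5 points and Serpinb9b at 50, and just outside were Dnmt3b at 47.6 and Runx1t1 at 48.4. The 16 became 31, 174, 26 and 39 without E277.3, E298.4, E277.5 and E301.1, and the 5 became 55 and 26 without E277.3 and E277.5 and 7 without either of the other two. Leaving out an embryo can only keep or widen a gap, so these counts could not fall.

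**Figure D1:**
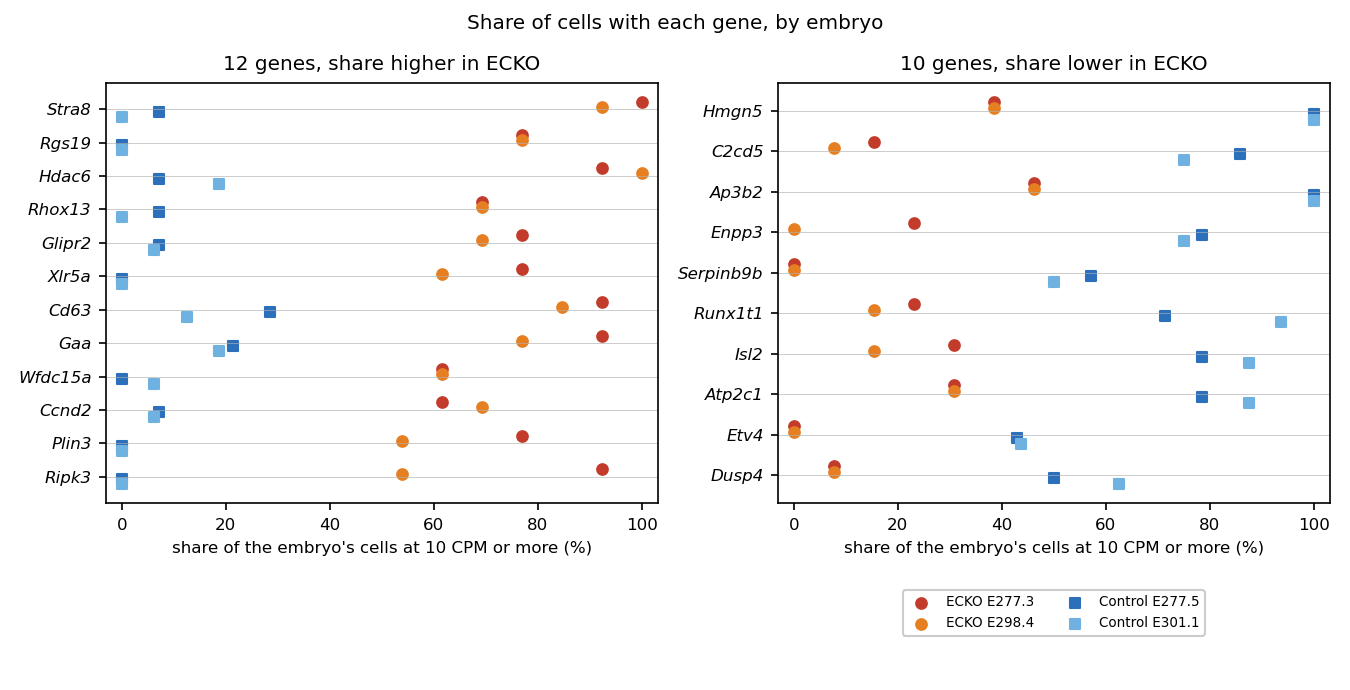
Share of each embryo's kept cells with the gene at 10 CPM or more, in percent, for the 12 genes with the largest gap upward and the 10 with the largest gap downward in ECKO; circles are ECKO embryos (13 cells each) and squares Control embryos (14 and 16 cells). Stra8 stood at 100% and 92.3% in ECKO and 7.14% and 0% in Control, and Hmgn5 at 38.5% in both ECKO embryos and 100% in both Control embryos.

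Stra8, the retinoic acid-induced gene needed to start meiosis, had the largest gap, 85.2 points. Among ECKO cells 13 of 13 and 12 of 13 had it, 100% and 92.3% with exact 95% intervals of 75.3% to 100% and 64.0% to 99.8%. In Control, 1 of 14 and 0 of 16 cells had it. The cells ranged up to 600 CPM with a median of 255 CPM in ECKO, and up to 49.9 CPM with a median of 0 in Control. Summed per embryo, Stra8 was at 286 and 147 CPM in ECKO and at 5.09 and 0.0368 CPM in Control, a log2 fold change of 6.40 (SE 1.65, edgeR adjusted p 0.185). At E11.5 it was at 65.5, 52.8, 25.1 and 1.93 CPM in ECKO and at 2.48, 2.73 and 1.35 CPM in Control. 3 of the 4 ECKO libraries thus lay above every Control library and the fourth among them, with a log2 fold change of 4.14 (SE 1.03, edgeR adjusted p 0.122). With the replicate number as a block, the E11.5 edgeR adjusted p was 0.0155 at a log2 fold change of 4.30. The labels do not say that these numbers pair libraries. ECKO library 4, at 1.93 CPM, has no Control library of its number, so it adds nothing to that contrast. That fit in effect leaves out the ECKO library that lay among the Controls.

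**Figure D2:**
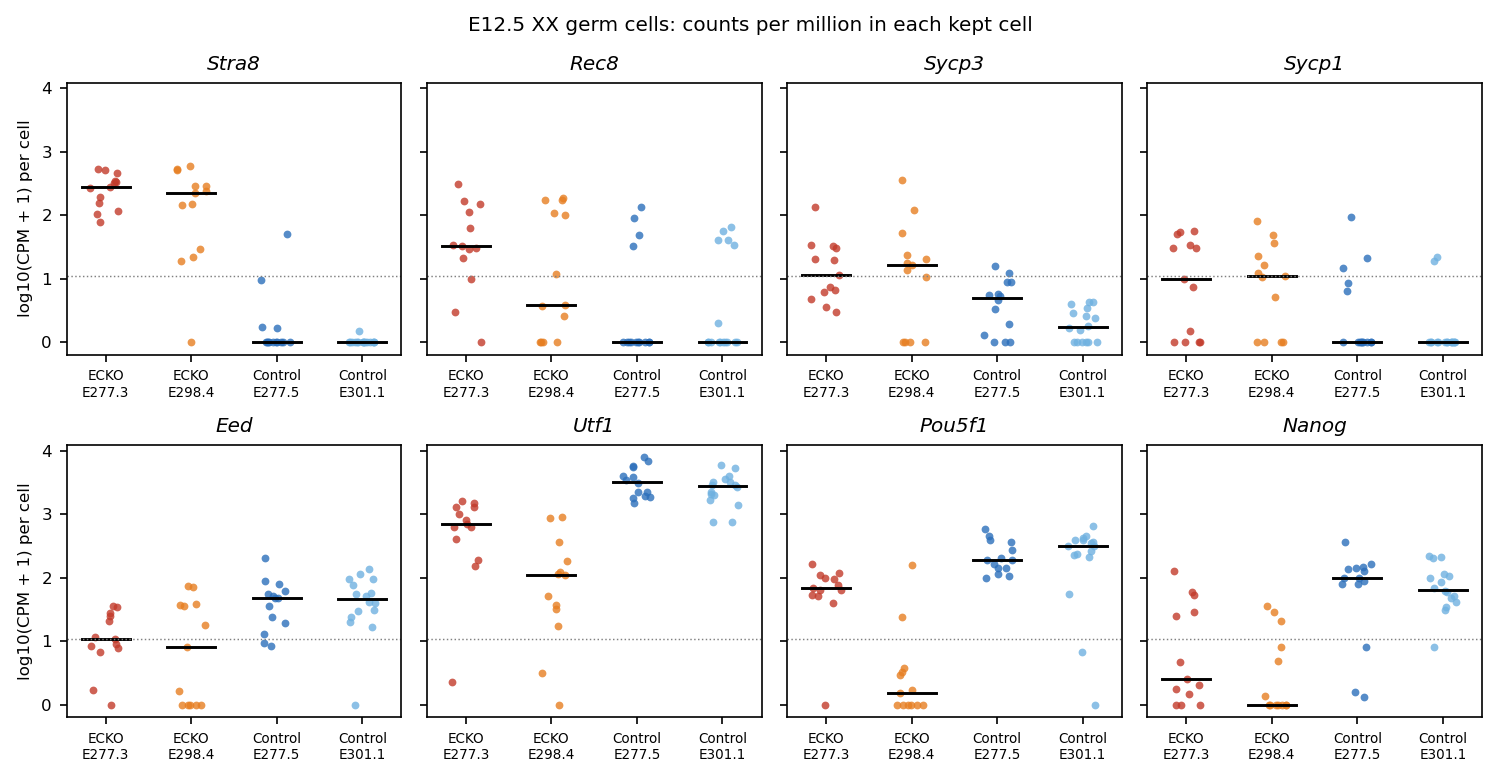
Level of 8 genes in each kept cell, as log10(CPM + 1), by embryo; bars are medians and the dotted line marks 10 CPM. Nearly all ECKO cells lay above the line for Stra8, Utf1 was lower in ECKO cells, with a median of 282 CPM against 2930 CPM in Control cells, and Pou5f1 separated the 2 ECKO embryos.

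Next after Stra8 came Rgs19, which speeds the shut-off of G protein alpha subunits, in 10 and 10 of 13 ECKO cells and in no Control cell. It was at 64.6 and 98.7 CPM in ECKO and at 0.0341 and 0 CPM in Control, where it had 1 count in all (ratio 4388, counting interval 787 to 173380). Hdac6, an X-linked deacetylase of tubulin, was present in 12 and 13 of 13 ECKO cells, against 1 of 14 and 3 of 16 Control cells. Ripk3, the kinase that triggers necroptosis, was present in 12 and 7 ECKO cells and in no Control cell, at 132 and 33.6 CPM in ECKO and 0.102 and 0 CPM in Control (ratio 1778, counting interval 608 to 8624). For these 3 genes both ECKO embryos lay above both Control embryos in share and in level.

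The other genes of the 16 have varied roles. Cd63, a tetraspanin of late endosomes, was present in 12 and 11 ECKO cells and in 4 and 2 Control cells, at 132 and 369 CPM in ECKO and 13.8 and 2.39 CPM in Control, and at 136 and 199 CPM in ECKO without the 2 marker-poor cells. Cd81, a related tetraspanin of the plasma membrane that lies in an imprinted region, was at 146 and 146 CPM in ECKO and 15.5 and 11.7 CPM in Control (log2 fold change 3.42, SE 0.52, edgeR adjusted p 0.08). Gaa, the lysosomal acid alpha-glucosidase, was present in 12 and 10 ECKO cells, against 3 and 3 Control cells. Fabp5, a fatty acid carrier, was present in 92.3% and 76.9% of ECKO cells, against 14.3% and 25.0% of Control cells. B2m, the light chain of MHC class I, was present in 53.8% of the cells of each ECKO embryo and in no Control cell. B2m, Fabp5 and the mitotic kinase Nek6 (76.9% and 69.2% in ECKO, 14.3% and 18.8% in Control) fall outside the rule for naming genes and were named after their values were seen, to complete the 16.

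The remaining 5 were germline, cell cycle or less studied genes. Rhox13, an X-linked homeobox gene of germ cells, was present in 9 and 9 of 13 ECKO cells, against 1 and 0 Control cells, at 86.6 and 31.1 CPM in ECKO and 1.09 and 0.257 CPM in Control. Xlr5a, of a multicopy X-linked family whose reads may be shared between copies, was present in 10 and 8 ECKO cells and in no Control cell at 10 CPM. Ccnd2, the G1 cyclin D2, was present in 8 and 9 ECKO cells and in 1 and 1 Control cells, but its level in ECKO was 20.9 CPM in E277.3 and 199 CPM in E298.4, or 21.6 and 46.6 CPM without the 2 marker-poor cells. Glipr2, a Golgi-associated protein, was present in 10 and 9 ECKO cells and in 1 and 1 Control cells. Wfdc15a, with a WAP-type domain, was present in 8 and 8 ECKO cells and in 0 and 1 Control cells.

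The 5 genes with a much smaller share were headed by Hmgn5, an X-linked nucleosome-binding protein, present in 5 of 13 cells of each ECKO embryo and in all 14 and all 16 Control cells. It was at 23.9 and 96.7 CPM in ECKO and 273 and 283 CPM in Control. Ap3b2, an adaptor subunit of vesicle traffic best known from neurons, was present in 6 and 6 ECKO cells and in every Control cell, at 37.9 and 37.2 CPM in ECKO and 233 and 289 CPM in Control (log2 fold change -2.80, SE 0.45, edgeR adjusted p 0.0892). C2cd5, a C2 domain protein, was present in 2 and 1 ECKO cells, against 12 and 12 Control cells. Enpp3, a cell-surface nucleotide pyrophosphatase, was present in 3 and 0 ECKO cells, against 11 and 12 Control cells. Serpinb9b, a protease inhibitor with close paralogs, was present in no ECKO cell, where 0 of 13 allows a share of up to 23.1%, and in 8 and 8 Control cells.

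The E11.5 XX libraries, which held 415291 to 7559310 counts, took no part in choosing these genes. Of the 16 genes with a higher E12.5 share, 14 could be tested there (all but Plin3 and Xlr5a). Of these, 13 had a positive log2 fold change and 1, Nek6, a negative one of -0.71, with a median of 1.87, while over all 11058 genes tested 5723 were positive and 5335 negative, with a median of 0.03. In 6 of the 14 tested genes all 4 ECKO libraries lay above all 3 Control libraries (42.9%), against 7.59% of all genes tested. Ripk3, among these, was at 0, 0 and 0.338 CPM in the Control libraries, so it could hardly be lower in ECKO. All 5 genes with a lower E12.5 share had a negative log2 fold change at E11.5, with a median of -1.14, and in 3 of them (60.0%) every ECKO library lay below every Control library, against 5.17% of all genes. At E11.5 15 genes rose (0.136%) and 4 fell (0.0362%) over all genes. Of the 21, only Hmgn5 was among them. It was at 92.7, 119, 181 and 137 CPM in ECKO and 499, 255 and 464 CPM in Control (log2 fold change -1.61, SE 0.28, edgeR adjusted p 0.0359). The call was lost without Control library 1 (adjusted p 0.166), 2 (0.0585) or 3 (0.224) or ECKO library 1 (0.116) or 2 (0.0698).

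**Figure D3:**
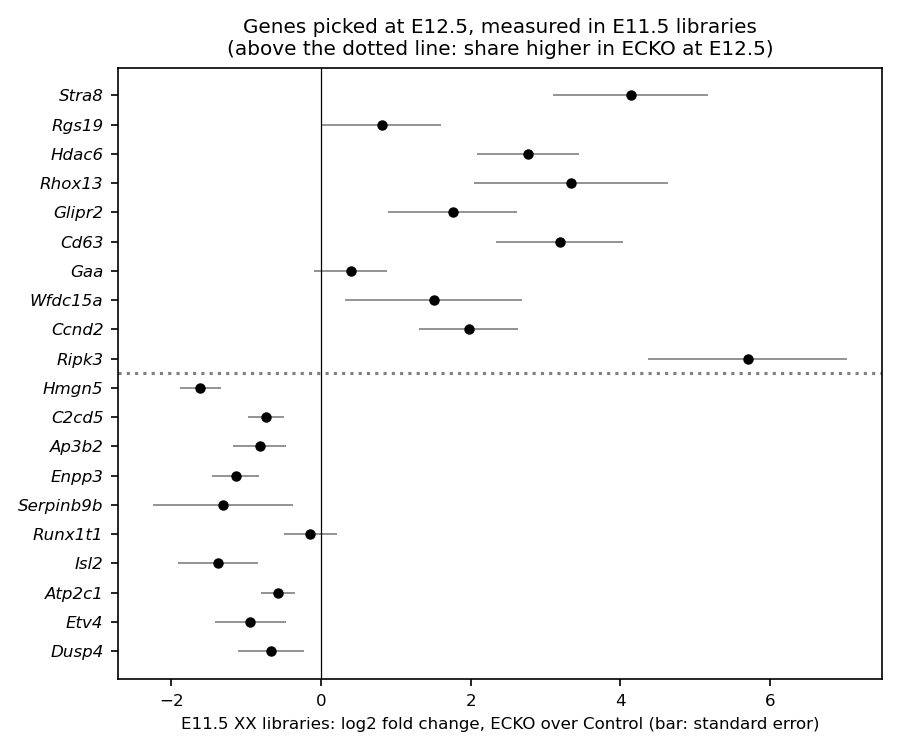
Log2 fold change, ECKO over Control, in E11.5 XX bulk libraries (4 ECKO, 3 Control) for the genes with the largest E12.5 gaps, with standard errors; genes above the dotted line had a higher share in ECKO at E12.5 and those below it a lower one. The 10 genes above the line that could be tested were all positive and the 10 below it were all negative.

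The next genes by gap, among them PGC and developmental regulators, had smaller shares in both ECKO embryos too. Isl2, a LIM homeobox gene, was at 14.8 and 14.6 CPM in ECKO and 165 and 175 CPM in Control (log2 fold change -3.53, SE 0.50, edgeR adjusted p 0.0539). Etv4, an FGF-responsive ETS factor, was present in no ECKO cell and in 6 and 7 Control cells, and Dusp4, which dampens ERK signalling, in 1 and 1 ECKO cells and 7 and 10 Control cells. Prdm14, which helps to establish the PGC state, was present in 3 and 2 ECKO cells, against 9 and 11 Control cells. Runx1t1, a corepressor, and Atp2c1, a Golgi calcium pump, were also among the genes with the largest gaps.

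Counts of list members are read against the 20.1% and 11.55% of all genes whose shares did not overlap, higher and lower in ECKO. No member of any of the 26 lists passed the edgeR test at E12.5. Of the meiotic lists, 2 stood above that background and 1 near it. Rec8 counts as higher in both of the lists above it, so those 2 counts are not independent. For entry into meiosis, 4 of 11 members present had higher shares in both ECKO embryos and 0 lower, with a median log2 fold change of 0.73. For synaptonemal complex and meiotic cohesin genes the counts were 5 higher and 1 lower of 11, with a median of 1.16, and for recombination genes 4 higher and 2 lower of 18, with a median of 0.23, against 0.13 over all genes. Rec8, the meiotic cohesin, was present in 10 and 6 ECKO cells, against 4 and 5 Control cells, at 83.3 and 78.0 CPM in ECKO and 14.1 and 11.7 CPM in Control (log2 fold change 2.64, SE 0.64, edgeR adjusted p 0.16). Sycp3, an axial element of the synaptonemal complex, was at 15.7 and 22.5 CPM in ECKO and 4.44 and 0.956 CPM in Control. Sycp1, of its transverse filaments, was at 16.3 and 15.1 CPM in ECKO and 7.10 and 1.47 CPM in Control. Dmc1, the meiotic recombinase that acts later, was present in 3 and 2 ECKO cells and in 2 and 2 Control cells. It counts among the 4 recombination genes by a gap of only 1.1 points between shares, while its log2 fold change was -0.38, so no difference in Dmc1 was detectable at this depth.

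Stra8 was present in 25 of 26 ECKO cells, so counts in cells with Stra8 nearly repeat each gene's share of ECKO cells. With almost no ECKO cell lacking Stra8, those counts cannot show whether Stra8 goes with another gene. Of the cells with Stra8, 13 in E277.3 and 12 in E298.4, Rec8 was also present in 10 and 6, Sycp3 in 7 and 7, and Sycp1 in 6 and 6. Sycp3 and Sycp1 were present together in 4 and 4 ECKO cells and in no Control cell. Cells with Stra8 still carried PGC genes. Dppa3 was present in 12 and 11 of them and Utf1 in 12 and 10, while Nanog was present in 5 and 2. Eed was at 10 CPM or more in 6 and 5 of the cells with Stra8. Pou5f1 was present in 12 of 13 such cells in E277.3 and in 2 of 12 in E298.4.

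Genes tied to retinoic acid gave 12 higher and 1 lower share of 21 members present, or 12 and 2 without the 2 marker-poor cells, with a median log2 fold change of 2.77. Of the 21, 6 had no count in Control and so could not be lower in ECKO. Stra8 and Rec8 are on that list too. Crabp2, a carrier that brings retinoic acid to its receptors, was present in 13 and 10 ECKO cells and in 3 and 5 Control cells. It was at 314 and 151 CPM in ECKO and 11.54 and 12.9 CPM in Control (log2 fold change 4.25, SE 0.75, edgeR adjusted p 0.0906). Its E11.5 levels were 24.3, 35.2, 27.9 and 24.1 CPM in ECKO and 7.45, 2.04 and 7.43 CPM in Control. Crabp1, the related binding protein, was at 336 and 216 CPM in ECKO and 120 and 85.5 CPM in Control. The receptor gene Rxra was at 18.0 and 29.5 CPM in ECKO and 10.2 and 21.8 CPM in Control, so its levels overlapped while its shares did not. In thinned cells a median of 7 and 5 of the 27 list members had a count in ECKO, against 3.5 and 3 in Control. BMP pathway genes gave 6 higher and 2 lower of 17. Id2, a BMP target, was at 200 and 274 CPM in ECKO, or 207 and 143 CPM without those 2 cells, and 83.5 and 61.2 CPM in Control.

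**Figure D4:**
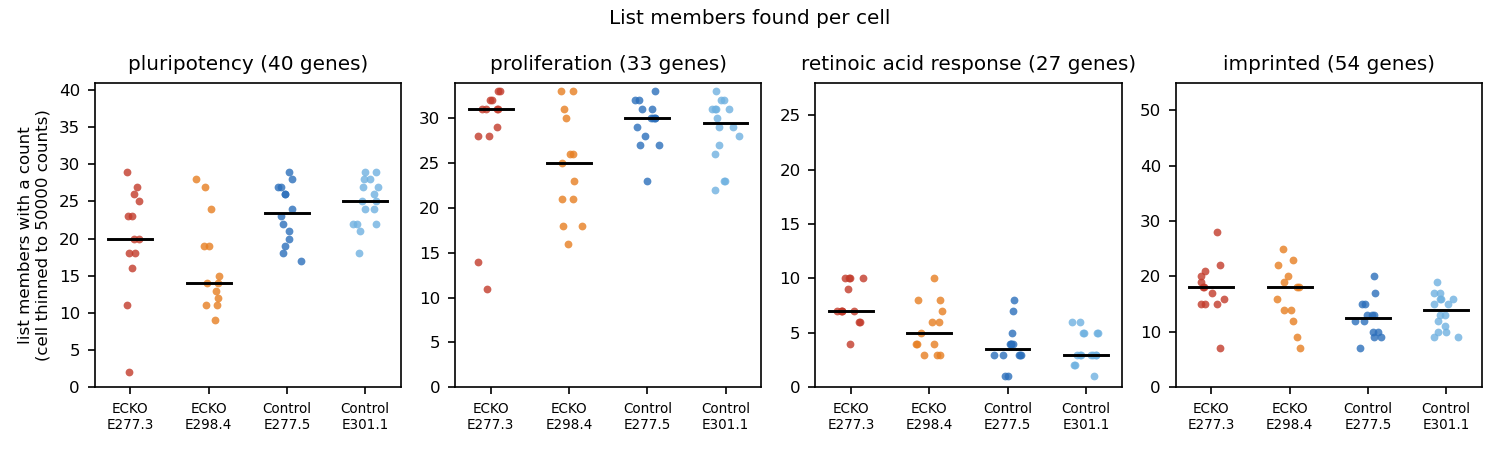
Number of list members with at least 1 count in each kept cell after thinning to 50000 counts, by embryo, for 4 lists; bars are medians. The retinoic acid list had medians of 7 and 5 in ECKO and 3.5 and 3 in Control, the imprinted list 18 and 18 in ECKO, above both Control medians, and the pluripotency list 20 and 14 in ECKO and 23.5 and 25 in Control.

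Germline genes that guard the genome, many of them in the piRNA pathway, gave 10 higher and 1 lower of 22, or 10 and 0 without the 2 marker-poor cells, with a median log2 fold change of 0.30. Tdrd1, a tudor protein that binds PIWI proteins, was present in 4 and 6 ECKO cells and in no Control cell, at 6.10 and 56.1 CPM in ECKO and 0.0341 and 0 CPM in Control, where it had 1 count. At E11.5 Tdrd1 rose, with 57.3, 67.3, 75.2 and 51.7 CPM in ECKO and 4.97, 4.77 and 3.72 CPM in Control (log2 fold change 3.86, SE 0.42, edgeR adjusted p 0.00478). That call was lost without Control library 1, 2 or 3, at adjusted p-values of 0.0575, 0.0585 and 0.128. Tex101, a germ cell surface protein, was at 106 and 81.6 CPM in ECKO and 0.683 and 6.80 CPM in Control. Mael, a piRNA factor, was at 42.2 and 69.7 CPM in ECKO and 15.2 and 23 CPM in Control. The list of male germ cell fate gave 10 higher and 2 lower of 19, several of them shared with genome defence. The male fate regulator Nanos2 and Dnmt3l, a cofactor of de novo DNA methylation, reached 10 CPM in no cell of either group.

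The machinery of DNA methylation gave 6 higher and 1 lower of 14. Uhrf1, which recruits the maintenance methyltransferase, was present in 9 and 11 ECKO cells, against 2 and 4 Control cells, at 81.9 and 158 CPM in ECKO and 3.31 and 20 CPM in Control. Dnmt3b, a de novo methyltransferase, was present in 8 and 7 ECKO cells, against 0 and 1 Control cells, at 45.9 and 20 CPM in ECKO and 0.0683 and 3.16 CPM in Control. Both had higher levels in all 4 ECKO libraries than in all 3 Control libraries at E11.5. Tet1, a 5-methylcytosine oxidase, had the opposite direction, at 18.2 and 43.9 CPM in ECKO, or 18.8 and 27.0 CPM without the 2 marker-poor cells, and 66.4 and 65.8 CPM in Control.

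Imprinted genes gave 17 higher and 6 lower of 45, or 15 and 4 of 42 without the 2 marker-poor cells. Their median log2 fold change was 1.01, or 0.80 with genes absent from Control set at their lower bound, and 0.46 without the 2 cells, where all genes had 0.11. Ascl2, a placental transcription factor, was at 95.2 and 50.3 CPM in ECKO and 6.90 and 2.28 CPM in Control. Grb10, which restrains insulin signalling, was present in 6 and 6 ECKO cells and in no Control cell. Cdkn1c, which encodes the CDK inhibitor p57, was present in 13 and 12 ECKO cells and in 7 and 9 Control cells, at 498 and 308 CPM in ECKO, or 483 and 169 CPM without the 2 cells, and 88.4 and 142 CPM in Control. At E11.5 Cdkn1c was at 58.6, 55.8, 41.9 and 306 CPM in ECKO and 17.4, 23.2 and 3.72 CPM in Control, without overlap (log2 fold change 3.12, SE 0.81, edgeR adjusted p 0.125). Peg3, a paternally expressed zinc finger gene, was lower, at 22.6 and 43.9 CPM in ECKO and 52.8 and 84.4 CPM in Control.

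Cell cycle genes split. CDK inhibitor genes gave 4 higher and 0 lower of 7, Cdkn1c among them. The others, Cdkn2b, Cdkn2c and Cdkn2a, rested on few cells. Without the 2 marker-poor cells they were in 3 and 2, 1 and 1, and 3 and 1 ECKO cells. In Control they were in 1 and 0, 0 and 0, and 1 and 0 cells. Cdkn1a, which encodes p21, was at 175 and 145 CPM in ECKO and 111 and 119 CPM in Control, present in 10 and 10 ECKO cells and in 7 and 13 Control cells. Ccnd1, the G1 cyclin D1, was at 64.7 and 51.9 CPM in ECKO and 24.2 and 4.52 CPM in Control. At E11.5 Ccnd1 rose, with 90.2, 67.3, 48.3 and 175 CPM in ECKO and 2.48, 8.18 and 6.08 CPM in Control (log2 fold change 3.93, SE 0.54, edgeR adjusted p 0.0281). The adjusted p was 0.110, 0.118 and 0.203 without Control library 1, 2 or 3 and 0.0659 without ECKO library 1. Ccne1, which encodes the S phase cyclin E1, was at 144 and 130 CPM in ECKO and 405 and 261 CPM in Control. Of 33 proliferation genes, 17 had lower shares in both ECKO embryos and 0 higher. Without the 2 marker-poor cells the counts were 3 lower (Top2a, Cdc6 and Ccnb1) and 1 higher, against 7.23% and 19.3% of all genes on that basis, so the lower count rested on those 2 cells. Summed over the list, proliferation genes were at 8543 and 7976 CPM in ECKO and 11663 and 11090 CPM in Control. Genes of the p53 response and apoptosis gave 8 higher and 3 lower of 25, or 7 and 2 without the 2 cells. Their median log2 fold change was 0.37, or 0.10 without the 2 cells, where all genes had 0.11. Phlda3 was at 209 and 15.8 CPM in ECKO and 15.6 and 27.1 CPM in Control, so its levels overlapped while its shares did not.

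Hox genes, classical PRC2 targets that pattern the body axis, were at or near 0 in Control cells. The 39 Hox genes summed to 102 and 136 CPM in ECKO embryos, against 0.0341 and 4.30 CPM in Control embryos. Without the 2 marker-poor cells the ECKO sums were 105 and 45.1 CPM. Of the 20 with 10 CPM in at least 1 cell, 17 had no count in Control, so they could not be lower in ECKO and the number that were higher is given only as a description. It was 8 of 20, and 4 of 18 without the 2 cells, where 19.3% of all genes were higher, so that it came close to the background. They were scattered over cells. In thinned cells a median of 2 and 1 Hox genes had a count in the ECKO embryos, against 0 and 0 in Control. Hoxc9 was present in 4 and 3 ECKO cells and had no count in Control, which puts it at least 262-fold higher by a floor of 3 counts over the group. Hoxb13, on the same basis at least 426-fold higher, was present in 5 cells of E277.3 and 1 of E298.4. Other developmental transcription factors gave 13 higher and 5 lower of 53, shares near those of all genes. Of the 48 tested, 23 had no count in Control. Nkx2-5, a heart factor, and Irx3, a patterning factor, had no count in Control, so they could not be lower in ECKO. By the same floor they were at least 291-fold and 130-fold higher, but these folds rested on few cells. Nkx2-5 was present in 2 and 2 ECKO cells. Irx3 was present in 3 and 2, or in 3 and 1 without the 2 marker-poor cells. Hand1, of heart and placenta, was at 92.7 and 17.8 CPM in ECKO and 5.36 and 7.72 CPM in Control. At E11.5 Hand1 rose, with 33.5, 53.5, 17.9 and 38.5 CPM in ECKO and 2.48, 1.36 and 1.35 CPM in Control (log2 fold change 4.53, SE 0.67, edgeR adjusted p 0.0281). The adjusted p was 0.110, 0.118 and 0.203 without Control library 1, 2 or 3 and 0.0659 without ECKO library 1. Tbx4, a limb factor, had the opposite direction, at 8.64 and 18.4 CPM in ECKO and 81.3 and 196 CPM in Control.

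Pluripotency genes leaned away from ECKO, with 3 higher and 18 lower shares of 39 and a median log2 fold change of -1.09. Without the 2 marker-poor cells 14 were lower, still above the 7.23% of all genes on that basis. They summed to 5308 and 5917 CPM in ECKO, against 12576 and 13749 CPM in Control. Utf1, a chromatin factor of pluripotent and early germ cells, made up part of that difference, at 721 and 319 CPM in ECKO and 3453 and 2912 CPM in Control (log2 fold change -2.61, SE 0.54, edgeR adjusted p 0.124). It was still present in 12 and 11 of 13 ECKO cells. Nanog was at 25.1 and 7.47 CPM in ECKO and 118 and 93.2 CPM in Control. Etv5, an ETS factor paired with Etv4, was at 28.9 and 43.7 CPM in ECKO and 198 and 217 CPM in Control (log2 fold change -2.52, SE 0.44, edgeR adjusted p 0.0906). Sox2 was at 57.0 and 27.5 CPM in ECKO and 41.8 and 79.3 CPM in Control, with overlap. Klf4 had the opposite direction, in 5 and 6 ECKO cells and in 1 and 0 Control cells. Among genes of germ cell identity, 5 of 25 were higher and 11 lower, or 5 and 7 without the 2 marker-poor cells. Tfap2c, a PGC specifier, was at 88.7 and 49.3 CPM in ECKO and 227 and 235 CPM in Control. Ddx4 was at 76.4 and 116 CPM in ECKO and 117 and 50.9 CPM in Control, and Dazl at 408 and 264 CPM in ECKO and 379 and 149 CPM in Control, and both overlapped. The E11.5 levels of Utf1 overlapped too, 251 to 867 CPM in ECKO and 550 to 785 CPM in Control.

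**Figure D5:**
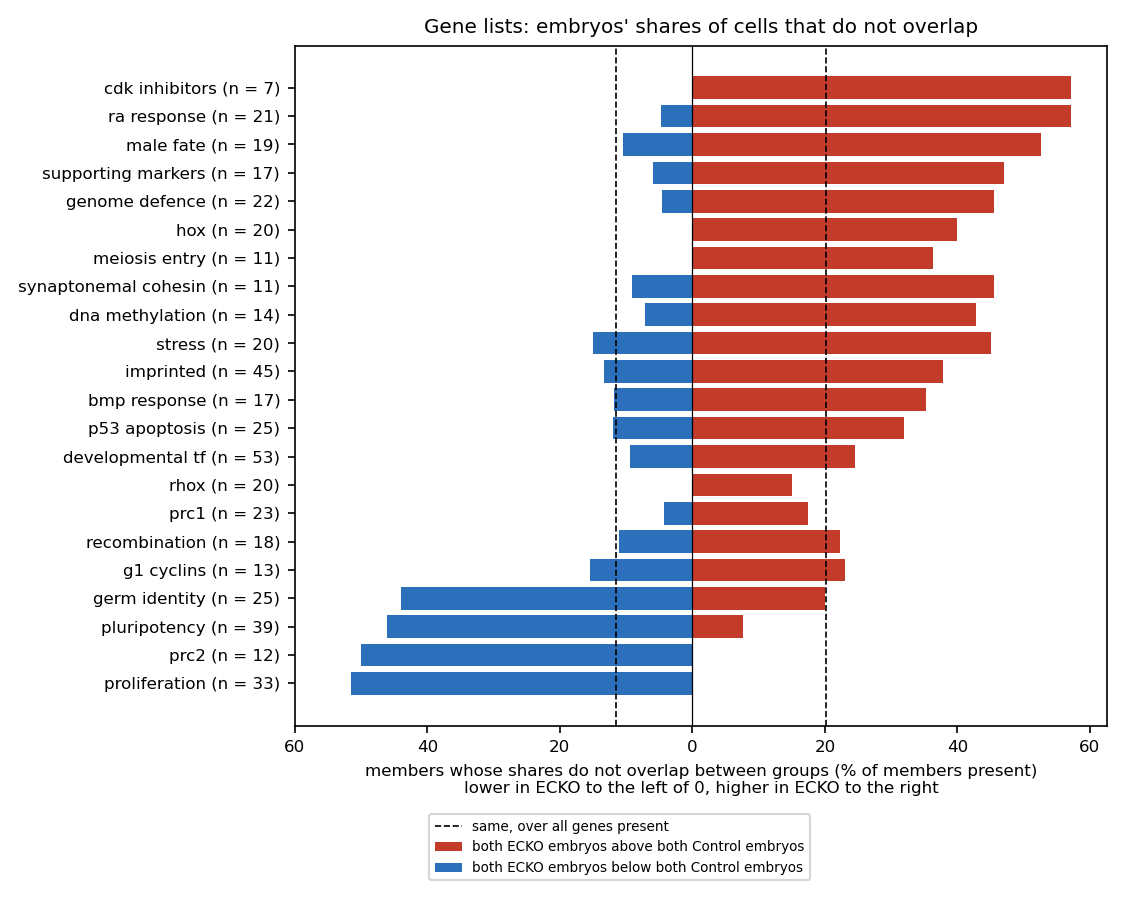
Percent of each list's members present whose shares of cells did not overlap between groups, higher in ECKO to the right of 0 and lower in ECKO to the left; dashed lines give the same over all genes, 20.1% and 11.55%. Retinoic acid genes had 12 of 21 higher and pluripotency genes 18 of 39 lower; the 17 lower proliferation genes became 3, and the 8 higher Hox genes 4, without 2 marker-poor cells.

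The 2 ECKO embryos differed from each other in a set of genes. Pou5f1 was present in 12 of 13 cells of E277.3 and in 2 of 13 of E298.4, against 14 of 14 and 14 of 16 Control cells, although all cells were sorted on a Pou5f1 reporter. Its level was 73.2 and 28.7 CPM in the ECKO embryos and 243 and 331 CPM in the Control embryos. Ttll1, a polyglutamylase, was in 11 cells of E277.3 and 0 of E298.4. The splicing factor Cwc22, the Golgi protein Cog8, the mRNA export factor Pcid2 and the modifier Sumo2 were each in 11 or 12 cells of E277.3 and in 1 of E298.4. In the other direction the ion channel subunit Lrrc8a was in 1 cell of E277.3 and 11 of E298.4, and Cwf19l2 in 1 and 10. Fgfr3, Dlg5 and Ccnk were each in 0 and 8. The ribosomal pseudogene Rps15a-ps6, in 5 and 13 cells, is uncertain because it shares reads with its parent gene. E298.4 had fewer counts and fewer genes per thinned cell than E277.3, and the part of this in these differences was not tested.

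Markers of other gonadal cells moved with the groups in part. The 24 supporting cell genes summed to 0 to 1886 CPM per ECKO cell, with a median of 253 CPM, and to 0 to 935 CPM per Control cell, with a median of 54.5 CPM. Of these genes 5 were at 0 in ECKO and 15 in Control, and Foxl2 and Amh were at 0 in both. Of the 17 present, 8 had higher shares in both ECKO embryos, against 20.1% of all genes, and 1 lower, against 11.55%. Krt18, Wnt4, Fst and Rspo1 were among the higher ones. Without the 2 marker-poor cells 7 of 14 were higher and 0 lower, against 19.3% and 7.23%. Of the 14 tested with all kept cells, 7 had no count in Control and so could not be lower in ECKO. Krt18, a keratin of epithelial cells, gave much of the sum, at 224 and 307 CPM in ECKO and 115 and 13.2 CPM in Control. The 20 interstitial genes summed to 0 to 3779 CPM in ECKO, or up to 420 CPM without the 2 marker-poor cells, with a median of 88.3 CPM, and to 0 to 542 CPM in Control, with a median of 81.2 CPM. Nr2f2, Tcf21 and Dcn were at 0 in every cell. The 11 endothelial genes had a lower sum per cell, with a median of 31.1 CPM in ECKO (0 to 129) and 115 CPM in Control (13.6 to 472). Kdr was at 0 in all. Of the 8 present, 4 had lower shares in both ECKO embryos and 1, Sox17, higher, with and without the 2 marker-poor cells. Pecam1, an adhesion protein of endothelium that PGCs also carry, was at 16.6 and 4.76 CPM in ECKO and 126 and 64.1 CPM in Control. It made up most of the list's Control sums, 171 and 95.2 CPM. The 15 blood genes did not pass 18.98 CPM in any ECKO cell or 18.8 CPM in any Control cell, with 13 of them at 0 in each group.

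The 20 genes of the dissociation and stress response summed to a median of 5984 CPM in ECKO cells (2013 to 28008) and 3908 CPM in Control cells (2060 to 6472). Their shares were higher in both ECKO embryos for 9 and lower for 3 of 20, or 8 and 1 without the 2 marker-poor cells. Jun was present in 11 cells of E277.3, 3 of E298.4 and no Control cell, at 404 and 7.95 CPM in ECKO, or 174 and 2.93 CPM without those cells, and 0.0341 and 0.184 CPM in Control. Fos was at 611 and 295.5 CPM in ECKO, or 591 and 168 CPM without them, and 104 and 15.1 CPM in Control, while Ier2 was at 239 and 146 CPM in ECKO and 416 and 321 CPM in Control. At E11.5 the levels of Jun and Fos overlapped between groups. The part of these markers in the other differences was not tested.

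X-linked genes had shares higher in both ECKO embryos for 123 and lower for 70 of 533, with a median log2 fold change of 0.38. Autosomal genes gave 2699 and 1548 of 13484, with a median of 0.13. The median share of a cell's counts on the X chromosome was 2.28% and 2.83% in the ECKO embryos and 2.58% and 2.44% in the Control embryos, so the groups overlapped. Xist, which coats the inactive X chromosome, reached 10 CPM in 1 ECKO cell, the one rich in Pdgfra, and in no Control cell. Rhox genes of the X chromosome gave 3 higher and 0 lower of 20, and they summed to 1804 and 1138 CPM in ECKO and 2873 and 3687 CPM in Control.

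The effect of the deletion in XX was compared with that in XY cells by an interaction term in the same fit. No gene differed at an edgeR adjusted p under 0.05, the smallest being 0.502, with 681 at an unadjusted p under 0.05. About 698 of the 13956 genes tested would be expected there if no gene differed. DESeq2 called 135 genes, 88 with a more positive and 47 with a more negative effect in XX. The fitted effect of Jak3 was -4.06 in XX and -1.79 in XY on the log2 scale, that of Bin2 9.44 and 2.83, and that of Plin3 11.46 and 11.69. Utf1 had -2.61 in XX and -0.90 in XY, and Eed -1.75 and -1.70. None of these genes is shown by edgeR to respond differently in the sexes.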

How the data were processed

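The authors deposited raw counts for 24391 gene symbols, 1 column per cell or bulk library. The submitters' processing notes name HISAT2, edgeR and mm9, without versions or roles. The counter, annotation and strandedness were not given in the sources used here, so overlapping or antisense genes, paralogs and pseudogenes cannot be fully told apart. No header column was left unmapped and no 2 cells held identical values.

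Counts of kept cells were summed per embryo and fitted in edgeR 4.0.16 (R 4.3.3) with filterByExpr, TMM scaling, sex by genotype groups and the quasi-likelihood F test, over 8 embryos. Adjusted p-values are Benjamini-Hochberg over all genes tested, and a gene was called at an adjusted p under 0.05. SE is the fold change divided by the square root of F. Levels per embryo and per bulk library are CPM with TMM factors, and levels per cell are CPM of the cell's total. These levels are not per length, so they are compared within a gene. Embryos are the replicates, and the p-values measure their spread. Intervals of shares are exact Clopper-Pearson at 95% and cover the sampling of cells within 1 embryo. Beside a share of 0 stands the limit it allows, 3 cells of the total, and where a group had 0 counts, 3 counts in the whole group served as the floor for a fold. Both reflect counting error alone; without molecular identifiers, reads do not count independent molecules. E11.5 XX libraries were fitted alone in the same way, and replicate numbers, which the labels do not say pair the libraries, served as a block in an alternative. Fits were tested on simulated data.

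Members and lists were chosen with earlier results of these data known. Named genes were the PRC2 subunits, the 4 markers, called genes, the 12 genes with the largest gap in each direction, the 6 in each direction that differed most between the ECKO embryos, up to 4 members of each list in each direction by gap, and a fixed set of 15 meiotic, pluripotency and cell cycle genes. Not every gene this rule names is reported here. Gm, Rik, LOC, Mir and Snor symbols were left out of ranked parts. Alternatives were DESeq2 1.42.0, no filter, other cell filters and thresholds, thinning and leaving out each embryo or library. Leaving out the 2 marker-poor cells, each XY embryo, the shares' embryos in turn and all but E277.3 and E277.5 in XX was chosen after seeing the data. Promoter windows came from RefSeq on GRCm38.p6 by symbol, with the first listed window per gene.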

Additional observations from a re-analysis of the deposited data

Results flagged for a closer look

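Hormad1, a meiotic chromosome axis gene, had ECKO embryos on opposite sides of their Controls in the 2 sexes. It was at 3.18 and 1.69 CPM in XX ECKO and 3.89 and 5.26 CPM in XX Control, while both XY ECKO embryos lay above both XY Control embryos. The log2 fold change in XX minus that in XY was -2.38. Ptch1, the Hedgehog receptor, behaved in the same way, at 0.748 and 1.93 CPM in XX ECKO and 13 and 5.85 CPM in XX Control, with a difference of -4.71. Both genes are low, and the edgeR interaction test called neither difference, at an adjusted p of 1.0 for each.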

How the results depend on the processing

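The 3 genes called at E12.5 stayed at 3 with DESeq2 size factors in edgeR and with cells of at least 200000 counts and 3000 genes. They became 910 (662 higher and 248 lower) with DESeq2, 566 (392 and 174) without a filter on low counts, 5 (4 higher) without the 2 marker-poor cells and 181 (156 and 25) with E277.3 against E277.5 as the only XX embryos. They became 0 (0 and 0) with the XX embryos alone and with thinned cells. Leaving out 1 embryo of either sex gave 46 to 241 calls, 34 to 179 higher and 10 to 62 lower; there the lone embryo of a group is assumed to vary like the others, and the cause was not tested. The difference between sexes went to 135 genes with DESeq2, 84 without a filter, 64 with those 2 XX embryos and 0 to 37 with 1 embryo left out. The 16 genes higher by the gap became 10 with thinned cells, 33 at 1 CPM, 5 at 50 CPM, 31 with deeper cells and 26 to 174 with 1 embryo left out. The 5 lower became 3 with thinned cells, 1 at 1 CPM and 7 to 55 with 1 embryo left out. By its definition a gap can only stay or widen when an embryo is left out, so counts by the gap cannot fall there. Of the log2 fold changes of named genes under alternatives, 580 at E12.5 and 350 at E11.5 kept direction and call, 166 and 20 gained a call, 6 and 16 lost it, and 7 and 15 reversed. Reversals appear where ranges cross 0. With 1 embryo left out, the E12.5 values ran from -0.97 to 0.63 for Dmc1, -1.13 to 0.024 for Sox2, -0.27 to 0.91 for Ddx4 and -0.17 to 1.17 for Dazl, and E277.3 against E277.5 alone gave 0.48 for Sox2 and -0.58 for Ddx4. With 1 library left out, the E11.5 values ran from -0.10 to 0.65 for Gaa, -0.40 to 0.15 for Runx1t1, -0.45 to 0.014 for Prdm14, -0.38 to 1.35 for Sycp3, -0.65 to 0.12 for Dmc1, -0.096 to 0.49 for Pou5f1 and -0.064 to 3.07 for Xist. With the replicate number as a replicate block, Dmc1 was 0.13 at E11.5 and Stra8 4.30 with an edgeR adjusted p of 0.0155. ECKO library 4 has no Control library of its number, so it adds nothing to the contrast in that fit. No block was fitted at E12.5, because the columns carry embryo codes and not the labels' numbers. Fewer than 20 cells per embryo limit the shares, and the E11.5 libraries are shallow, 415291 counts in the least.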

Other observations

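The XX ECKO embryo E277.3 and the XX Control embryo E277.5 have codes that start with the same number. With the other XX embryos left out, a comparison chosen after seeing the data that has 1 embryo a side and takes its spread from the XY embryos, edgeR called 181 genes, 156 higher and 25 lower in ECKO. Plin3, Bin2 and Jak3 were among them. Of the cells left out for low depth in XX embryos, 40 in all, the median total was 1420.5 counts.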
